A study of Mus musculus with 3 samples.

Results

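The 3 *Lrig* genes and the 4 genes of the ErbB receptor family were followed across the cell types of the mouse larynx. They were taken by symbol from the feature list, which gave *Lrig1*, *Lrig2*, *Lrig3*, *Egfr*, *Erbb2*, *Erbb3* and *Erbb4*, 7 of 33696 features, each found once. Single-cell RNA sequencing (10x Genomics GEM-X 3') was available for 3 libraries of a single condition: tdTomato-sorted cells of larynges from *Lrig1Cre ERT2/+; ROSA LSL-tdTom/+* mice on a C57BL/6 J background, collected 24 h after tamoxifen-induced recombination. Each library pooled 10 larynges, 5 of males and 5 of females, so the library was the replicate (n = 3), and the comparisons were between cell types inside the libraries. The age of the mice is not given in the sources used here. In these mice Cre is made from 1 *Lrig1* allele, tdTomato stays on after the Cre pulse, and the sort therefore kept cells that had used the *Lrig1* promoter, so *Lrig1* levels described cells already chosen by that gene. Cre and tdTomato are not among the features, so the sort itself was not checked in the counts.

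ErbB receptors are receptor tyrosine kinases that pair on the cell surface when a ligand of the EGF or neuregulin type binds. EGFR binds EGF, TGF-alpha and amphiregulin, ErbB2 has no known soluble ligand and serves as the preferred partner of the others, ErbB3 binds neuregulins but has little kinase activity of its own, and ErbB4 binds neuregulins and some EGF-type ligands. LRIG proteins are transmembrane proteins with leucine-rich repeats and immunoglobulin-like domains. LRIG1 is known to lower the amount of ErbB receptors at the surface and marks slowly dividing stem cells in several epithelia, whereas the roles of LRIG2 and LRIG3 towards ErbB receptors are less settled.

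On the mouse genome GRCm39, *Lrig1* lies on chromosome 6 from 94581510 to 94677242 (minus strand), *Lrig2* on chromosome 3 from 104303734 to 104419249 (minus strand) and *Lrig3* on chromosome 10 from 125802034 to 125853160 (plus strand). *Egfr* lies on chromosome 11 from 16702198 to 16868158 (plus strand), *Erbb2* on chromosome 11 from 98303203 to 98328542 (plus strand), *Erbb3* on chromosome 10 from 128403392 to 128425811 (minus strand) and *Erbb4* on chromosome 1 from 68071345 to 69147619 (minus strand). The 3 *Lrig* genes are thus on 3 chromosomes, and *Erbb3* shares a chromosome with *Lrig3*. Antisense genes overlap several of them, *Slc25a26* for *Lrig1*, *Gm38412* for *Lrig2*, *Egfros* and *Eldr* for *Egfr* and *Mien1* for *Erbb2*. Whether the counting used strand is not given in the sources used here, although the 3' kit keeps it. Noncoding genes on the same strand lie within *Lrig2* (*Gm43696*, *A530041M06Rik*, *4930509H03Rik*) and *Erbb4* (*Gm16076*), so their reads may be shared.

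The bases just upstream of 4 of these genes are shown because *Lrig1* drives the sort and because *Lrig2*, *Lrig3* and *Egfr* had the higher Pearson correlations over the epithelial cell types described further on. The sequences are from RefSeq (promoter table on GRCm38.p6), were placed on GRCm39 by exact match and run 5′ to 3′ on the gene's strand. Each ends at the base before the gene's first base as given above, which lies upstream of the RefSeq start for all 4 genes. They cover chr6:94677243-94677376 for *Lrig1*, chr3:104419250-104419484 for *Lrig2*, chr10:125801838-125802033 for *Lrig3* and chr11:16701953-16702197 for *Egfr*. Capitals mark a GC box (GGGCGG) or a CCAAT box (CCAAT), each searched on both strands.
Lrig1: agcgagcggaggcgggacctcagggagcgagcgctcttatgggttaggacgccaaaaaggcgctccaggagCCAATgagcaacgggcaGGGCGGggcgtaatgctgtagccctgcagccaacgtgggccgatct
Lrig2: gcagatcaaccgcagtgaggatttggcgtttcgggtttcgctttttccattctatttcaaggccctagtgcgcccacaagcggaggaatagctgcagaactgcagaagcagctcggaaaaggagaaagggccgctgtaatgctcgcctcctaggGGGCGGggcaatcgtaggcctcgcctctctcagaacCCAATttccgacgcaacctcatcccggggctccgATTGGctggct
Lrig3: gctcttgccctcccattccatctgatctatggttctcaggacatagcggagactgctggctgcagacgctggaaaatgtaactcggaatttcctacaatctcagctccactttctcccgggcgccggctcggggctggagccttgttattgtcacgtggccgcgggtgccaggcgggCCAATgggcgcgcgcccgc
Egfr: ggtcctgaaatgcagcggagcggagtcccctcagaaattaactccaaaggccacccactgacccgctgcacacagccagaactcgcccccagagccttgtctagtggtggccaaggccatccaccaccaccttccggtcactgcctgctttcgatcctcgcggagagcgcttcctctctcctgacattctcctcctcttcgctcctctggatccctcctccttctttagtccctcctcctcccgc

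The *Lrig1* stretch of 134 bases held 1 GC box and 1 CCAAT box, letters found in 14.5% and 18.0% of stretches of that length among 32851 promoters. For all 4 genes each comparison stretch began at a fixed distance before its own RefSeq start and ended short of that start. The shares are thus not those of stretches next to a start. The *Lrig2* stretch of 235 bases held 1 GC box and 2 CCAAT boxes (30.6% and 32.6% of promoters held at least 1). The *Lrig3* stretch of 196 bases held 1 CCAAT box (27.8%) and no GC box (23.9%), and the *Egfr* stretch of 245 bases held neither, against 32.1% and 33.5% of all promoters. The GC content of the 4 stretches ranged from 57.4% to 64.9%. *Lrig1*, *Lrig2* and *Lrig3* each held a CCAAT box, and neither motif was in all 4. These matches describe letters and not factor binding.

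The 3 libraries held 18068, 10816 and 31646 barcodes, of which 13222, 7201 and 24119 were kept after limits on genes, unique molecular identifiers (UMIs) and mitochondrial share and after removal of simulated-doublet neighbours. The kept cells held 155660453, 109376583 and 289610220 UMIs, with library medians from 10178 to 13957 UMIs per cell, and 46 to 165 barcode sequences were shared between a pair of libraries. A share of cells with a UMI rises with depth, so each cell was thinned to 5000 UMIs, which left 9596, 6138 and 19427 cells. Classes were given by UMIs of marker genes that include none of the 7 genes. Without a class stayed 3698 epithelial cells that met no further gate, 1739 cells that met conflicting gates and 1476 others. Basal epithelial cells, the stem cell layer, had at least 15 UMIs of *Krt5*, *Krt14*, *Krt15* and *Trp63* and were divided by genes of the airway lining (*Nkx2-1*, *Aldh1a7*, *Scnn1a*) and of the squamous vocal fold lining (*Tmprss11a*, *Tmprss11b*) into airway basal (4214 cells), squamous basal (7321), basal with both sets (4864) and basal with neither set (2025). The other classes with at least 20 cells in every library were suprabasal squamous (*Krt13*, *Krt4*; 945 cells), early secretory (*Scgb3a2*; 776), gland (585), ciliated (893), fibroblast (3443), muscle satellite (1815), endothelial (397) and leukocyte (186) cells, and a class gated on thyroid genes (414). The libraries differed in their makeup: library 1 supplied 353 of the 397 endothelial and 133 of the 186 leukocytes and 1657 fibroblasts against 334 in library 2, so levels in endothelial cells and leukocytes of libraries 2 and 3 rest on 21 to 27 cells each. Independent markers put *Col17a1* highest in squamous basal, *Fgfr4* in satellite, *Fbn1* in fibroblast, *Ptprb* in endothelial, *Cd68* in leukocyte and *Drc1* in ciliated cells. The basal markers *Dst* and *Itga6* were highest in the class gated on thyroid genes. Of the markers of club and early secretory cells, *Cyp2f2* was highest in early secretory cells, *Aldh3a1* in suprabasal cells and *Reg3g* in goblet cells, gated on *Muc5b*. The thyroid gate went against its name, since 18.6% of its cells had a UMI of thyroglobulin (*Tg*) against 93.0% for *Foxe1* and 80.7% for *Tshr*, and it is called the *Foxe1/Tshr* class here. Club cells, gated on *Scgb1a1*, numbered 9 to 16 per library and were too few to describe.

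Levels are in CPM, the field's usual scaled count (UMIs of the gene over all UMIs summed in a class, scaled to a common total), given for libraries 1, 2 and 3 in that order. They compare a gene with itself across classes and not different genes with each other. Shares are of cells with at least 1 UMI of the gene at 5000 UMIs per cell. RNA set free from broken cells can place a UMI in a cell that does not express the gene, so the share in leukocytes, at the same depth, is given beside the others. How much of a leukocyte share is such RNA, and how much the leukocytes' own, was not tested.

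*Egfr* was highest in muscle satellite cells, the resident stem cells of skeletal muscle, at 486, 510 and 487 CPM. Basal epithelial cells came next, with 384, 303 and 348 CPM in airway basal and 363, 312 and 321 CPM in squamous basal cells. All 4 basal classes and the *Foxe1/Tshr* class overlapped in their library values, and the satellite values lay above them. *Egfr* then fell along the differentiated epithelium, from 315, 286 and 237 CPM in suprabasal squamous cells and 209, 191 and 223 CPM in early secretory cells to 72.1, 73.2 and 84.5 CPM in gland cells and 42.0, 49.3 and 49.6 CPM in ciliated cells. Fibroblasts had 247, 227 and 200 CPM, within the range of suprabasal and early secretory cells. Leukocytes had 40.5, 32.2 and 43.9 CPM, and endothelial cells had 9.65 CPM, no UMI and 3.40 CPM, where no UMI allows up to 9.48 CPM. At equal depth 81.9% ± 1.9 (SD, n = 3) of satellite, 75.2% ± 2.5 of squamous basal, 17.7% ± 1.9 of ciliated and 14.6% ± 0.95 of leukocyte cells had an *Egfr* UMI. Leukocytes did not give the lowest share for this gene. In library 1 it was found in 11 of 353 endothelial cells (3.12%) against 18 of 133 leukocytes (13.5%).

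*Erbb2* and *Erbb3* were higher in the 9 epithelial classes than in the 4 other classes. *Erbb2*, the partner receptor, had 35.9, 38.5 and 40.9 CPM in airway basal and 45.3, 41.8 and 45.8 CPM in squamous basal cells. Suprabasal squamous cells were its highest class at 52.4, 62.6 and 62.0 CPM, above all values of early secretory cells, the next class (45.6 to 49.5 CPM), while ciliated and gland cells had 30.8 to 43.5 CPM. Cells that met the neuroendocrine gate, 46 and 24 in libraries 1 and 2 and so outside the 13 classes, had 8.37 and 12.8 CPM of *Erbb2* and 38.1 and 38.5 CPM of *Erbb3*. Outside the epithelium *Erbb2* was at 7.85, 8.45 and 9.05 CPM in fibroblasts, 6.17, 5.71 and 9.49 CPM in satellite cells, and 6.32 to 7.92 CPM in endothelial cells. The share of cells with an *Erbb2* UMI was 20.04% ± 0.73 in squamous basal, 4.14% ± 1.2 in fibroblast and 0.251% ± 0.43 in leukocyte cells (SD, n = 3), the leukocyte share resting on 1 cell of 133 in library 1.

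*Erbb3*, the neuregulin receptor of weak kinase activity, had 54.5, 49.5 and 46.4 CPM in airway basal, 45.8, 50.2 and 42.8 CPM in squamous basal and 60.6, 73.9 and 67.2 CPM in suprabasal squamous cells. Gland cells (49.7, 59.1 and 53.0 CPM) and early secretory cells (60.1, 49.0 and 54.9 CPM) overlapped with the basal classes, and ciliated cells had 46.5, 34.4 and 39.9 CPM. Outside the epithelium satellite cells had 4.26, 3.63 and 3.49 CPM and fibroblasts 1.66, 0.235 and 1.62 CPM, the fibroblast value of library 2 being 1 UMI in 334 cells. Shares were 19.6% ± 0.94 in squamous basal, 1.91% ± 0.68 in satellite, 0.683% ± 0.34 in fibroblast and 0.501% ± 0.87 in leukocyte cells, so the fibroblast share was near that of leukocytes.

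*Erbb4* varied most between epithelial classes. Gland cells had 186, 108 and 146 CPM, early secretory cells 76.8, 74.2 and 41.6 CPM, airway basal cells 57.6, 31.7 and 34.5 CPM and squamous basal cells 9.23, 3.65 and 6.39 CPM. Basal cells with both sets of markers lay between airway and squamous basal cells at 34.0, 14.3 and 24.1 CPM, and suprabasal squamous cells were lowest of the 9 epithelial classes at 1.24, 0.669 and 0.290 CPM, 13 UMIs in all. The cells of the neuroendocrine gate had 1 *Erbb4* UMI in libraries 1 and 2 together. Epithelial cells that met no further gate had 93.0, 55.6 and 85.7 CPM. In the *Foxe1/Tshr* class the libraries stood apart, with 182, 107 and 16.1 CPM. Among other cells *Erbb4* was found in satellite cells (29.6, 18.3 and 19.6 CPM) and was low in fibroblasts (3.64, 1.64 and 2.69 CPM). Shares of cells were 29.98% ± 3.0 in gland, 10.8% ± 2.5 in airway basal, 2.39% ± 0.84 in squamous basal and 6.51% ± 1.7 in satellite cells, and no leukocyte had an *Erbb4* UMI at 5000 UMIs per cell, against 1 UMI in the unthinned counts of the 133 leukocytes of library 1.

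*Lrig1*, the gene the sort rests on, was high in all basal classes and in satellite cells. Squamous basal cells had 89.8, 96.9 and 103 CPM, airway basal cells 74.3, 80.3 and 88.1 CPM and satellite cells 87.9, 101 and 83.9 CPM. These classes, the other basal classes and the *Foxe1/Tshr* class formed a chain in which neighbours overlapped, and all of them were above early secretory (60.5, 60.2 and 67.6 CPM), ciliated (58.2, 55.9 and 59.9 CPM), fibroblast (34.2, 44.8 and 51.5 CPM) and gland cells (44.1, 32.0 and 45.3 CPM). Suprabasal squamous cells had 46.6, 69.6 and 55.6 CPM, of which 69.6 CPM lay within the range of the *Foxe1/Tshr* class (68.9 to 90.9 CPM). Endothelial cells had 6.43, 9.48 and 6.80 CPM, and leukocytes 1.43 CPM, no UMI and 6.27 CPM, where no UMI allows up to 8.06 CPM. Epithelial cells that met no further gate, 10.5% of cells, had 101 to 121 CPM. A UMI of *Lrig1* was found in 36.2% ± 0.74 of squamous basal, 34.5% ± 4.1 of satellite, 17.1% ± 2.1 of fibroblast and 0.251% ± 0.43 of leukocyte cells. Endothelial cells and leukocytes of a tdTomato sort thus carried *Lrig1* mRNA at or near the lowest level of the 13 classes.

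*Lrig2* was the most even of the 7 genes. From the highest class to the lowest its mean level differed by 2.38-fold, from 50.7, 50.7 and 61.8 CPM in satellite cells to 21.6, 25.0 and 21.98 CPM in ciliated cells. All basal classes and fibroblasts lay between 39.3 and 45.2 CPM. Leukocytes, where the other genes but *Egfr* were near 0, had 25.7, 24.2 and 34.5 CPM, and 12.3% ± 4.0 of them had a UMI against 19.1% ± 0.11 of squamous basal cells. Of the 12 steps in the order of its 13 class levels, 11 joined classes whose library values overlapped.

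*Lrig3* was highest in squamous basal cells at 118, 129 and 118 CPM and in the *Foxe1/Tshr* class at 124, 103 and 112 CPM. Airway basal cells had 90.2, 90.5 and 82.2 CPM, suprabasal squamous cells 77.9, 87.0 and 65.9 CPM and early secretory cells 59.6, 62.6 and 64.8 CPM. Gland cells (30.2, 22.8 and 29.1 CPM) and ciliated cells (15.0, 14.9 and 16.8 CPM) were far below. Satellite cells had 35.3, 38.9 and 36.6 CPM, below fibroblasts at 53.8, 68.8 and 48.7 CPM. In the order of the 13 classes 6 of 12 neighbouring pairs did not overlap, more than for any other of the 7 genes. Shares were 43.9% ± 2.2 in squamous basal, 22.3% ± 3.2 in fibroblast, 8.03% ± 1.1 in ciliated and 2.72% ± 4.1 in leukocyte cells (SD, n = 3).

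**Figure D1:**
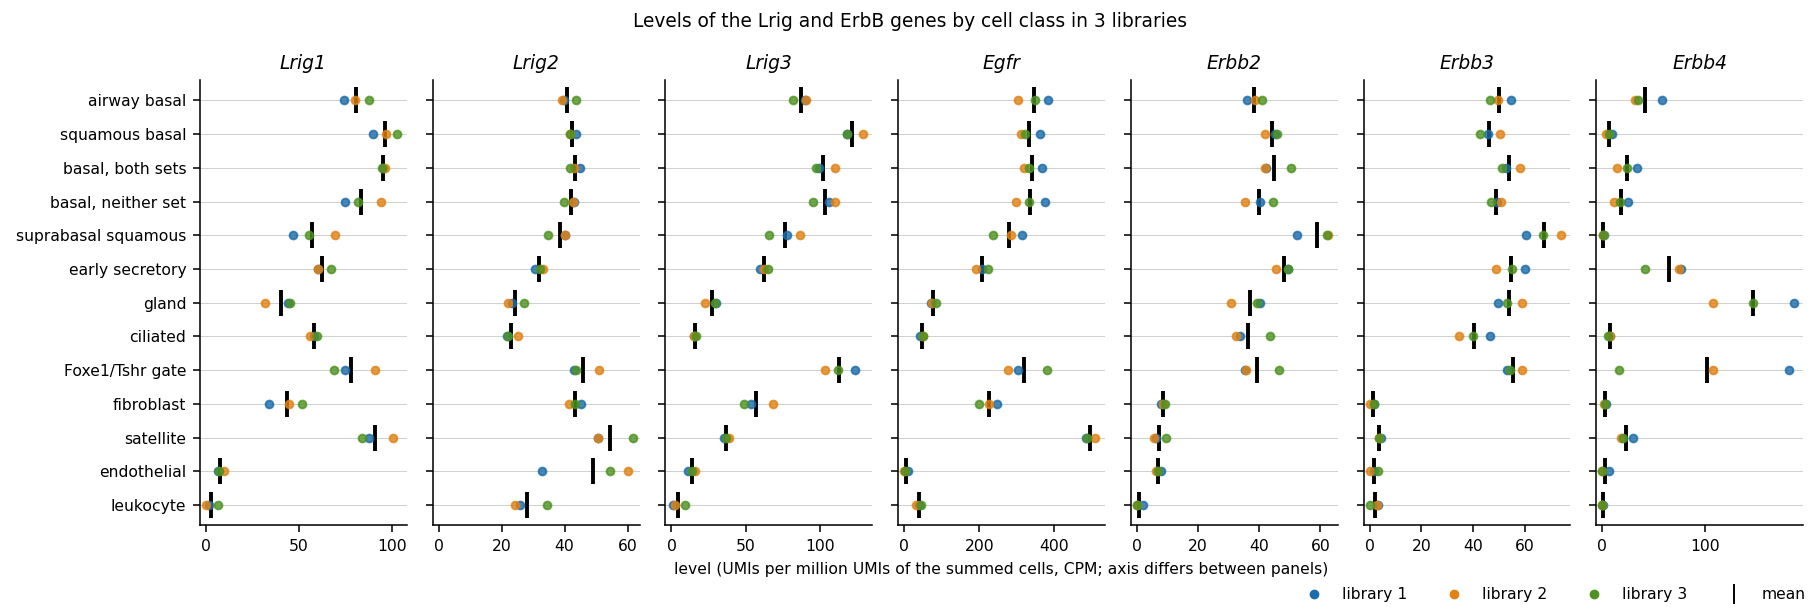
Level of each gene (x axis, CPM, a different range in each panel) in 13 cell classes (rows), with a point per library and a bar at the mean of 3 libraries. *Egfr* peaks at 486 to 510 CPM in satellite cells, *Erbb2* and *Erbb3* are low in the 4 non-epithelial classes, *Erbb4* peaks in gland cells at 108 to 186 CPM, and *Lrig2* is nearly level.

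**Figure D2:**
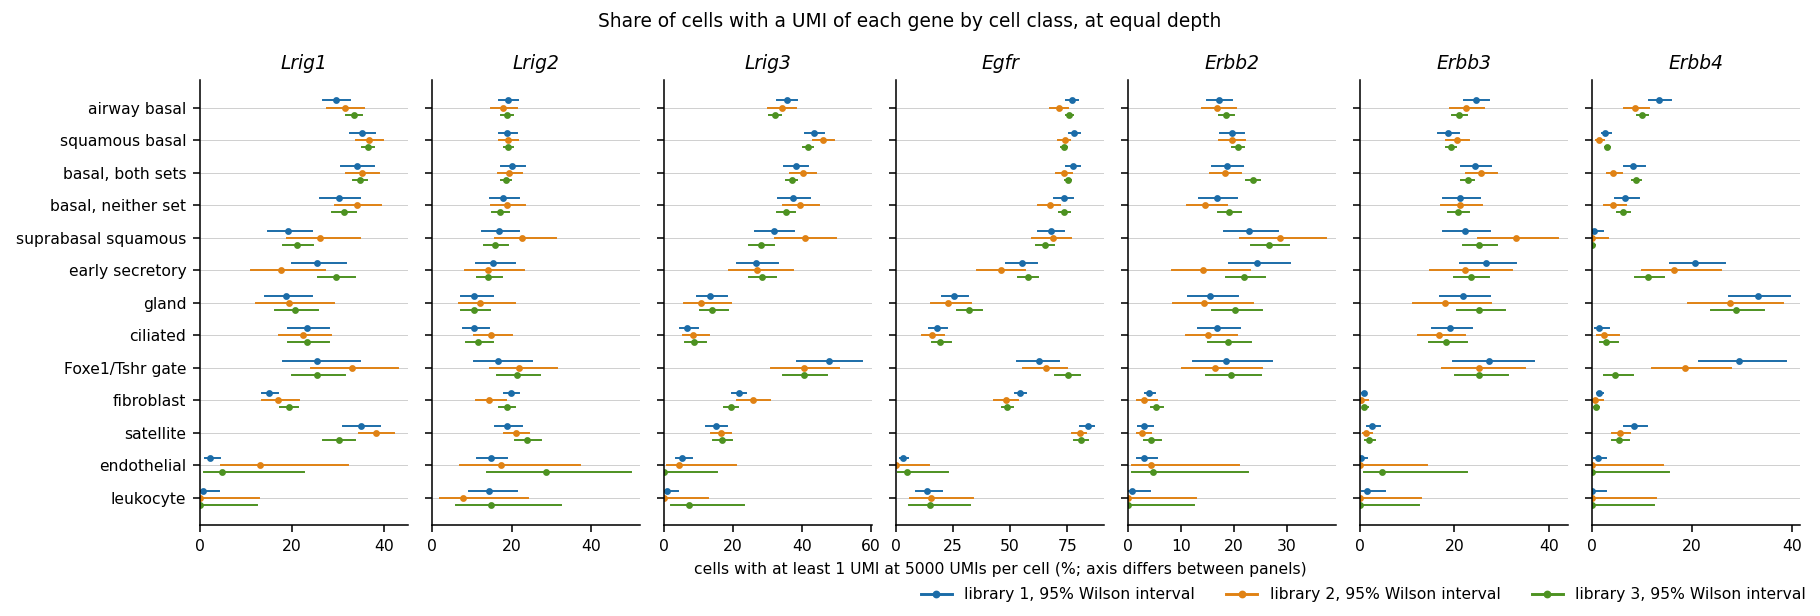
Share of cells with at least 1 UMI of each gene (x axis, percent) after every cell was thinned to 5000 UMIs, per class (rows) and library, with 95% Wilson intervals, which cover counting error only. The intervals are wide for endothelial cells and leukocytes of libraries 2 and 3, with 21 to 27 cells each, and *Lrig1* is found in 35.3% to 36.7% of squamous basal cells.

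The comparison of airway with squamous basal cells asked whether the stem cells of the 2 linings of the larynx differ in these receptors. Counts were summed per class and library and tested with edgeR's quasi-likelihood test (Benjamini-Hochberg adjustment over 18238 genes, two-sided). The sums of all classes entered the same fit without a block, so the spread was shared across classes and sums of a library were treated as independent. Deviations of airway and squamous basal sums from their class means correlated, at r = 0.27, 0.46 and 0.63 in the libraries. Of the 7 genes 2 passed an adjusted p of 0.05, in a comparison in which 8.17% of all genes did. *Erbb4* was higher in airway basal cells by 2.67 ± 0.46 (log2, SE; adjusted p = 9.26e-05). *Lrig3* was lower there by a log2 fold of -0.49 ± 0.13 (adjusted p = 0.0146), lower in 3 of 3 libraries. The call for *Lrig3* was lost when library 1 or library 2 was left out, with adjusted p = 0.208 and 0.140 at log2 folds of -0.52 and -0.47. *Lrig1* had a log2 fold of -0.27 ± 0.15 (adjusted p = 0.346) and was lower in airway basal cells in 3 of 3 libraries without overlap, but did not pass. It passed at adjusted p = 0.0476 when only the classes compared entered the fit and at 0.0212 with stricter gates, where its log2 fold was -0.53. *Egfr* (0.04 ± 0.20), *Erbb2* (-0.22 ± 0.13), *Erbb3* (0.10 ± 0.16) and *Lrig2* (-0.07 ± 0.13) had adjusted p from 0.404 to 0.985.

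Of 53 other genes of ErbB signalling 51 were tested in this comparison. The list held ligands, sheddases, effectors, inhibitors and 2 other receptors and was chosen with earlier results of these data known. In airway basal cells 2 were higher and 2 lower, 7.84% of those tested against 8.17% of all genes. The median log2 fold of the list was -0.10 against -0.01 over all genes. *Pik3r1*, a regulatory subunit of PI3-kinase, was at 348 ± 23 CPM in airway basal and 222 ± 5.8 CPM in squamous basal cells (SD, n = 3; log2 fold 0.63 ± 0.16, edgeR adjusted p = 0.00664).

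Suprabasal squamous cells, named by their *Krt13* and *Krt4* UMIs and not by position, were compared with squamous basal cells. Their gate did not exclude cells with basal keratins. Of the 7 genes 5 passed, against 16.8% of all genes: *Erbb2* and *Erbb3* were higher, and *Lrig1*, *Lrig3* and *Erbb4* lower. *Lrig1* fell by a log2 fold of -0.62 ± 0.15 (adjusted p = 0.00384) and *Lrig3* by -0.53 ± 0.14 (adjusted p = 0.00572). *Erbb4* was lower by -3.23 ± 0.80 (adjusted p = 0.00402), from a level that was already low in squamous basal cells. *Erbb2* rose by 0.56 ± 0.13 (adjusted p = 0.00249) and *Erbb3* by 0.68 ± 0.17 (adjusted p = 0.00308), each higher in 3 of 3 libraries without overlap. *Egfr* had a log2 fold of -0.10 ± 0.20 (adjusted p = 0.797) and *Lrig2* 0.00 ± 0.13 (adjusted p = 1.00). On the CPM scale *Lrig2* was lower in suprabasal cells in 3 of 3 libraries (40.3, 40.1 and 34.8 against 43.6, 41.7 and 41.8 CPM), so its place depended on the scaling. The median log2 fold of all genes was -0.09 with the TMM factors used and -0.13 with RLE factors. The suprabasal cells were the deepest of the 13 classes, with a median of 24468 UMIs per cell before thinning against 17021 in squamous basal cells, and the part of depth in these values was not tested.

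These calls changed with the gates and with the library left out, and the cause was not tested. With gates on the counts as deposited, every one of the 5 kept its direction and none passed. The log2 folds there were -0.52 ± 0.17 for *Lrig1* (adjusted p = 0.0513), -0.51 ± 0.18 for *Lrig3* (0.0746), -1.65 ± 0.60 for *Erbb4* (0.0801), 0.52 ± 0.19 for *Erbb3* (0.0879) and 0.33 ± 0.13 for *Erbb2* (0.117). Those of *Erbb4* and *Erbb2* were the most reduced. Without library 1 the folds were -0.53 ± 0.22 for *Lrig1* (adjusted p = 0.170), -0.55 ± 0.19 for *Lrig3* (0.0928) and 0.75 ± 0.24 for *Erbb3* (0.0626). *Erbb2* had 0.46 ± 0.18 without library 2 (adjusted p = 0.121) and 0.46 ± 0.16 with no filter on low counts (0.0556). Without library 3 the folds were 0.41 ± 0.15 for *Erbb2* (adjusted p = 0.0822), 0.50 ± 0.19 for *Erbb3* (0.104) and -2.59 ± 0.89 for *Erbb4* (0.0687). Among the 51 other genes of the list 3 were higher and 7 lower in suprabasal cells (19.6% against 16.8% of all genes, median log2 fold 0.03 against -0.09 over all genes). The genes that were lower included *Spry1* and *Spry2*, which restrain Ras signalling downstream of receptor kinases, at 23.9 ± 6.1 against 74.3 ± 6.0 CPM and 20.4 ± 2.5 against 58.0 ± 8.4 CPM (log2 folds -1.53 ± 0.21 and -1.35 ± 0.20, edgeR adjusted p = 2.12e-06 and 5.68e-06). *Rhbdf2*, which brings the ligand-shedding enzyme ADAM17 to the surface, was at 22.8 ± 2.9 against 14.4 ± 1.2 CPM (log2 fold 0.81 ± 0.17, adjusted p = 0.000717).

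Early secretory cells were compared with airway basal cells, in place of club cells, which were too few. None of the 7 genes passed in this fit, against 4.07% of all genes. At an unadjusted p under 0.05, 2454 of 18238 genes did. The libraries of both classes come from the same pools of mice, and with the library as a block 3 of the 7 passed, against 7.09% of all genes: *Egfr* was lower by -0.61 ± 0.16 (adjusted p = 0.0116), *Lrig3* lower by -0.37 ± 0.12 (adjusted p = 0.0456) and *Erbb2* higher by 0.44 ± 0.11 (adjusted p = 0.0098). The unblocked folds were almost the same, -0.62, -0.38 and 0.44, with adjusted p = 0.0796, 0.139 and 0.0594. DESeq2 called *Egfr* and *Erbb2* as well, at adjusted p = 0.0121 and 0.0023. *Erbb4* had a log2 fold of 0.74 ± 0.44 (adjusted p = 0.515), and its library values in the classes overlapped, although it was higher in early secretory cells within each library. With stricter gates it passed at 1.24 (adjusted p = 0.015), and *Lrig3* passed without library 3 at -0.53 (adjusted p = 0.0383). From the list, 1 gene was higher and 6 lower (13.7% of 51, median log2 fold -0.06 against -0.04 over all genes), among them *Spry1* at 25.5 ± 8.6 against 74.4 ± 6.4 CPM (log2 fold -1.40 ± 0.21, adjusted p = 4.12e-05) and the neuregulin gene *Nrg1* at 40.5 ± 13 against 110 ± 26 CPM (log2 fold -1.31 ± 0.35, adjusted p = 0.0244).

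Fibroblasts were set against the mean of airway and squamous basal cells, the stromal against the epithelial side of the mucosa. They had less of 6 of the 7 genes, in a comparison in which 59.6% of all genes passed and 26.9% were lower. *Erbb3* was lower by a log2 fold of -4.99 ± 0.21 (adjusted p = 8.67e-21) and *Erbb2* by -2.23 ± 0.14 (adjusted p = 9.59e-17). *Erbb4* was lower by -2.41 ± 0.48 (adjusted p = 4.99e-05). The differences were smaller for *Lrig1* (-0.98 ± 0.14, adjusted p = 1.08e-07), *Lrig3* (-0.82 ± 0.12, adjusted p = 3.24e-07) and *Egfr* (-0.54 ± 0.18, adjusted p = 0.00839). *Lrig2* did not pass, at 0.11 ± 0.11 (adjusted p = 0.425). The *Egfr* call was lost without library 3 (-0.48, adjusted p = 0.0510).

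Of the 51 listed genes tested, 15 were higher and 19 lower in fibroblasts, 66.7% against 59.6% of all genes (median log2 fold -0.15 against 0.02 over all genes). *Errfi1*, a feedback inhibitor that binds the EGFR kinase, was at 480.5 ± 29 CPM in fibroblasts and 153 ± 63 CPM in basal cells (log2 fold 1.70 ± 0.35, edgeR adjusted p = 8.09e-05), and *Stat5b* at 115 ± 11 against 41.9 ± 2.7 CPM (1.50 ± 0.11, adjusted p = 9.73e-15). *Met*, a receptor that LRIG1 also acts on, was at 12.6 ± 2.9 against 211 ± 22 CPM (-4.01 ± 0.21, adjusted p = 2.58e-18). The ligand gene *Hbegf* was at 8.26 ± 8.5 against 40.7 ± 20 CPM (-2.38 ± 0.68, adjusted p = 0.00268), with library values that varied as much as their mean in fibroblasts.

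Satellite cells, compared with fibroblasts, had more of 4 of the 7 genes and less of 1, where 40.6% of all genes passed, 16.0% higher and 24.6% lower. *Egfr* was higher by 1.07 ± 0.20 (adjusted p = 4.53e-05), *Lrig1* by 1.00 ± 0.15 (adjusted p = 1.75e-06) and *Erbb4* by 2.85 ± 0.54 (adjusted p = 4.57e-05). *Erbb3* was higher by 1.30 ± 0.28 (adjusted p = 0.000245) at a level of 3.49 to 4.26 CPM, 59 UMIs in all satellite cells. *Lrig3* went the other way, -0.68 ± 0.14 (adjusted p = 0.000171), so the cells with the highest *Egfr* level had less *Lrig3* than fibroblasts. *Lrig2* (0.25 ± 0.13, adjusted p = 0.144) and *Erbb2* (-0.33 ± 0.17, adjusted p = 0.118) did not pass, and *Lrig2* did so at adjusted p = 0.0382 with only the classes compared in the fit. Of the list, 9 genes were higher and 13 lower (43.1%, median log2 fold 0.10 against -0.07 over all genes). *Spry1*, a marker of resting satellite cells in other studies, was at 585 ± 15 against 64.5 ± 12 CPM (3.10 ± 0.21, edgeR adjusted p = 1.72e-14) and *Rhbdf2* at 35.0 ± 2.1 against 2.52 ± 0.71 CPM (3.83 ± 0.21, adjusted p = 1.05e-16). Of the 3 neuregulin genes tested *Nrg2* and *Nrg1* were lower in satellite cells, *Nrg2* at 48.9 ± 6.9 and *Nrg1* at 33.4 ± 3.3 CPM against 3.11 ± 1.4 and 2.70 ± 1.2 CPM in satellite cells (-4.04 ± 0.27 and -3.71 ± 0.48, adjusted p = 1.57e-14 and 5.62e-08), and *Nrg4* was at 0.428 ± 0.046 against 0.322 ± 0.12 CPM (-0.44 ± 0.73, adjusted p = 0.682).

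Cycling basal cells, those with at least 3 of 8 proliferation genes such as *Mki67* and *Top2a*, numbered 63, 17 and 403 and were compared with the other basal cells. *Lrig1* was lower in them at 43.8, 30.6 and 44.6 CPM against 86.0, 93.8 and 97.7 CPM, and *Erbb4* at 0.768 CPM, no UMI and 6.61 CPM against 29.99, 12.8 and 18.0 CPM. In library 2 a count of 0 allows up to 7.65 CPM (3 counts in these cells, counting error only). Neither gene overlapped between the groups, with *Erbb4* of library 2 taken at that limit. The log2 folds were -1.13 ± 0.13 for *Lrig1* (edgeR over 15695 genes, adjusted p = 0.000139) and -2.06 ± 0.51 for *Erbb4* (adjusted p = 0.0125), 2 of 7 genes against 29.8% of all genes. Squamous basal cells, the basal class with the lowest *Erbb4*, were 53 of 63, 8 of 17 and 221 of 403 cycling cells. They were 1170 of 3253, 1032 of 2540 and 4837 of 12148 other basal cells. The part of this makeup in the folds was not tested. *Lrig3* did not pass, at 131, 125 and 94.1 CPM against 105, 114 and 104 CPM (0.06 ± 0.14, adjusted p = 0.812), and neither did *Erbb3* (0.03 ± 0.13), *Erbb2* (-0.21 ± 0.14), *Egfr* (-0.26 ± 0.16) or *Lrig2* (-0.39 ± 0.14), at adjusted p from 0.0620 to 0.894. With the library as a block, where 34.3% of all genes passed, *Egfr* did too (-0.27 ± 0.10, adjusted p = 0.0253). With stricter gates *Lrig2* passed at -0.50 (adjusted p = 0.0449). The *Erbb4* call was lost without library 1 (-1.35, adjusted p = 0.0619).

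Cycling cells were 4.33%, 0.769% and 4.37% of squamous basal cells in libraries 1, 2 and 3 and 0.309%, 0.591% and 0.512% of airway basal cells. Basal cells with both sets had 0.714%, 0.446% and 3.58% and those with neither set 0.473%, 0.893% and 3.40%, so the share of these kinds rested on library 3, and in library 2 all 4 kinds were under 1%. *Lrig1* was lower in the cycling cells of each kind when the libraries were summed: 46.7 against 102 CPM in squamous basal, 47.0 against 96.3 CPM in basal with both sets, 23.0 against 84.5 CPM in basal with neither set and 37.3 against 83.8 CPM in airway basal cells. *Erbb4* was lower in each kind too, at 3.28 against 6.56 CPM in squamous basal and 13.5 against 39.7 CPM in airway basal cells, the latter from 20 cycling cells. Of the list, 4 genes were higher and 16 lower in cycling cells (39.2% of 51 against 29.8% of all genes, median log2 fold -0.22 against -0.09 over all genes). *Hras* was higher, at 294 ± 31 against 196 ± 20 CPM (0.56 ± 0.12, adjusted p = 0.00544), and *Pik3r1* was lower at 126 ± 8.2 against 275 ± 6.7 CPM (-1.16 ± 0.11, adjusted p = 2.54e-05). *Hbegf* was at 14.4 ± 6.7 against 42.6 ± 21 CPM (-1.26 ± 0.42, adjusted p = 0.0454).

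**Figure D3:**
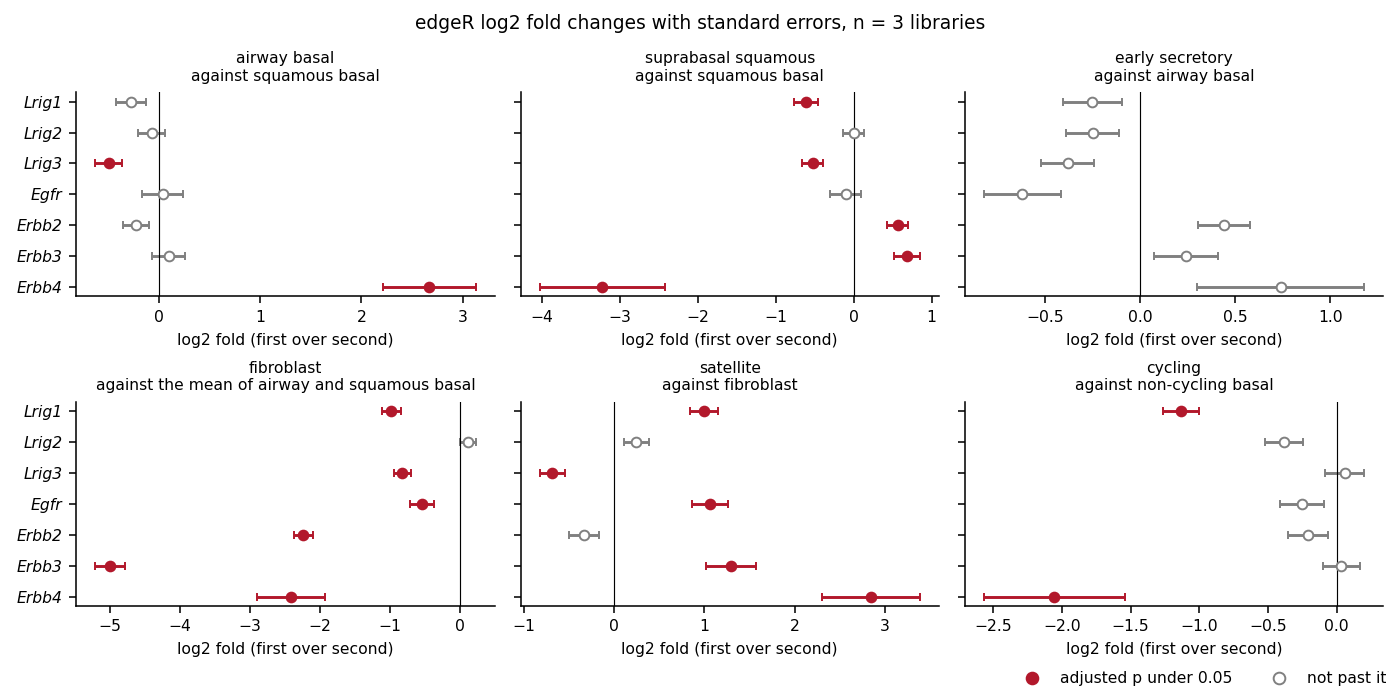
Log2 fold changes of the 7 genes (x axis, first class over second) with standard errors from edgeR on sums per class and library, n = 3 libraries, a panel per comparison. The first 5 panels come from the same fit of all classes. Filled points passed an adjusted p of 0.05: 2, 5, 0, 6, 5 and 2 of 7 genes from the first panel to the last, with *Lrig1* at -1.13 in cycling basal cells and *Erbb3* at -4.99 in fibroblasts.

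Which *Lrig* gene goes with which receptor was described first across classes, as the Pearson correlation of log2(CPM + 1) over the 13 classes of each library. Classes of a library share its depth and pool of mice, so these values carry no test. *Lrig1* and *Lrig3* both went with *Egfr*, with a mean r of 0.75 ± 0.10 and 0.75 ± 0.08 (SD over 3 libraries). By rank the values were 0.84 ± 0.08 for *Lrig1* and 0.71 ± 0.05 for *Lrig3* (Spearman's rho). *Lrig2* had r of 0.74, 0.01 and 0.13 in the 3 libraries, and a mean rho of 0.52 ± 0.16. In library 1 *Lrig1* had r = 0.76 and *Lrig3* 0.78, near that of *Lrig2*. The endothelial values of libraries 2 and 3 came from 23 and 21 cells, with no *Egfr* UMI and 1 *Egfr* UMI. With 0.1 in place of 1 added to the CPM, library 2 gave -0.12 for *Lrig2*, 0.46 for *Lrig1* and 0.57 for *Lrig3*. The part of these few cells in r was not tested. Within the 9 epithelial classes *Lrig3* and *Egfr* had r = 0.97, 0.99 and 0.98, and *Lrig2* and *Egfr* 0.97, 0.91 and 0.98, against 0.60, 0.81 and 0.69 for *Lrig1* and *Egfr*. By rank this gap was not seen, with a mean rho of 0.76 ± 0.15 for *Lrig3*, 0.74 ± 0.18 for *Lrig2* and 0.72 ± 0.14 for *Lrig1*. Gland (76.6 CPM) and ciliated cells (47.0 CPM) had the lowest mean *Egfr* of the epithelial classes, and also the lowest mean *Lrig2* and *Lrig3*. The basal classes and the *Foxe1/Tshr* class overlapped in *Egfr*. How far the epithelial r values rest on gland and ciliated cells was not tested. Ciliated cells had 58.0 ± 2.0 CPM of *Lrig1*, as much as suprabasal cells, with the lowest mean *Egfr* and *Lrig3* of the 9 epithelial classes. Satellite cells broke the rank of *Lrig3*, with the highest *Egfr* and 37.0 ± 1.8 CPM of *Lrig3*.

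*Erbb2* went with *Lrig1* at a mean r of 0.79 ± 0.04 and with *Lrig3* at 0.75 ± 0.02 over 13 classes, and within the epithelium the values were 0.03 ± 0.26 and 0.35 ± 0.11. The mean r of *Erbb3* went from 0.63 ± 0.07 to -0.22 ± 0.26 with *Lrig1* and from 0.59 ± 0.08 to 0.32 ± 0.16 with *Lrig3*. *Erbb4* had a mean r of 0.59 ± 0.05 with *Lrig1* and 0.45 ± 0.06 with *Lrig3* over 13 classes and of -0.12 ± 0.22 and -0.07 ± 0.14 within the epithelium. By rank over 13 classes *Lrig1* had a mean rho of 0.45 ± 0.08 with *Erbb2*, 0.32 ± 0.05 with *Erbb3* and 0.43 ± 0.08 with *Erbb4*. For *Lrig3* the mean rho was 0.64 ± 0.09, 0.53 ± 0.01 and 0.33 ± 0.09 in the same order. *Lrig2* had a mean r from -0.23 to -0.03 with these 3 receptors over 13 classes. Within the epithelium its values were 0.28 ± 0.12 with *Erbb2*, 0.26 ± 0.12 with *Erbb3* and -0.11 ± 0.08 with *Erbb4*. Without the *Foxe1/Tshr* class, a choice made after seeing the data, the mean r of *Lrig1* and *Lrig3* with *Egfr* was 0.75 and 0.74.

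The genes with the most similar class pattern were found among all genes with at least 10 CPM on average and no gate marker. For *Lrig1* they were the transcription factor genes *Sox5* and *Tead3* and the actin nucleator *Cobl*, with mean r of 0.97, 0.96 and 0.95 over 13 classes. *Lrig2* was matched by *Nop14*, the cohesin regulator *Pds5b* and the dynactin subunit *Dctn4* (0.91, 0.91 and 0.90), and *Lrig3* by the R-spondin receptor *Lgr4*, the nucleosome-binding *Hmgn1* and *Pdha1* (0.95, 0.95 and 0.94). Among those for *Egfr* were the BMP receptor *Bmpr1a* and *Cib2* (0.93 and 0.92). *Erbb2* had *Tmc4*, *Arhgap32* and *Pir* (0.97, 0.96 and 0.96), *Erbb3* the noncoding RNA *Gm16136*, the tight junction gene *Marveld3* and *Tmem184a* (0.98 each), and *Erbb4* the choline kinase *Chka*, the bicarbonate transporter *Slc4a4* and *Mccc2* (0.85, 0.81 and 0.81). The values for *Erbb4* were the lowest of the 7, and none of the 7 genes was among the 3 nearest of another.

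Pairs were then described within single cells of all basal classes, as the log2 odds ratio that a cell with a UMI of the *Lrig* gene also had a UMI of the receptor at 5000 UMIs per cell. The pair *Lrig3* and *Egfr* had the highest mean, 0.37 ± 0.15, with 0.42, 0.48 and 0.20 in the 3 libraries. An *Egfr* UMI was found in 77.6% ± 2.2 of basal cells with a *Lrig3* UMI and in 72.9% ± 2.8 of those without. *Lrig1* and *Egfr* had 0.18, 0.20 and 0.20, and *Lrig2* and *Egfr* 0.23, 0.08 and 0.21, so every *Lrig* gene was above 0 with *Egfr* in 3 of 3 libraries. *Lrig3* and *Erbb4* were below 0 in each library (-0.25, -0.58 and -0.27), and *Lrig3* and *Erbb2* lay at -0.08, -0.07 and -0.01. For *Erbb3* no *Lrig* gene had the same sign in all libraries.

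Because squamous basal cells have more *Lrig3* and less *Erbb4*, the pairs were also described within squamous basal and within airway basal cells. Values for basal cells with both sets or with neither set are not given here. *Lrig3* and *Egfr* stayed above 0 in all libraries in squamous basal cells (0.38, 0.79 and 0.38) and in airway basal cells (0.13, 0.22 and 0.13). *Lrig3* and *Erbb4* had -0.06, -0.73 and -0.53 in squamous basal cells, from 14, 5 and 51 cells with both, and -0.32, 0.01 and -0.04 in airway basal cells. *Lrig1* and *Erbb2* changed sign between the kinds, with 0.70, 0.16 and 0.06 in squamous basal and -0.17, -0.58 and -0.26 in airway basal cells. In satellite cells, where *Egfr* and *Lrig1* are both high, the pair had -0.28, 0.23 and -0.27, and in fibroblasts -0.38, 0.67 and -0.04. These weak values in sparse counts are descriptions and no finding by themselves.

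**Figure D4:**
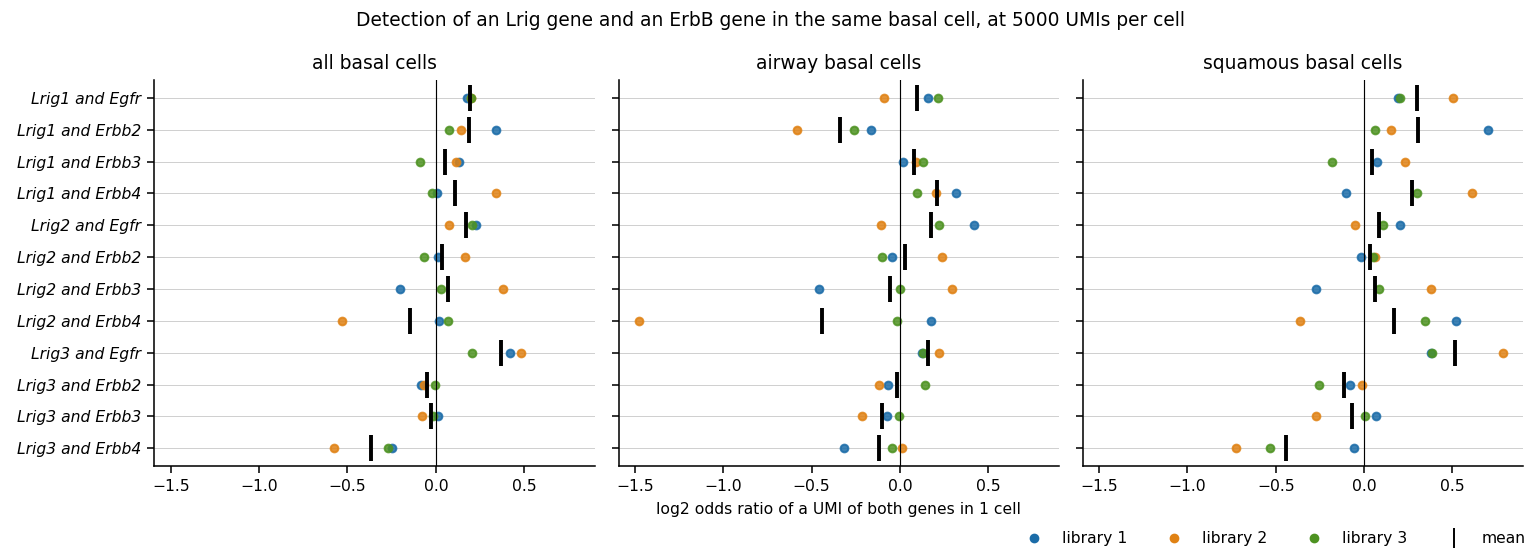
Log2 odds ratio of detecting an *Lrig* gene and an ErbB gene in the same cell (x axis) for 12 pairs (rows), in all basal, airway basal and squamous basal cells thinned to 5000 UMIs, with a point per library and a bar at the mean. *Lrig3* and *Egfr* lie above 0 in every library in all 3 panels, at 0.20 to 0.48 in all basal cells, and most other pairs scatter around 0.

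The same question was tested by summing basal cells with and without a UMI of a *Lrig* gene, 1086, 894 and 4366 cells with *Lrig1* and 1306, 1059 and 4739 with *Lrig3* among them, each cell at 5000 UMIs. Without a block edgeR called no gene in any of the 3 splits (0.00% of 13879, 14153 and 13667 genes for *Lrig1*, *Lrig2* and *Lrig3*). An unadjusted p under 0.05 was found for 278, 97 and 268 genes, in each split a share of the genes tested below 0.05. DESeq2 called 4, 0 and 2 genes. Cells with and without the UMI come from the same pool of mice in each library, and deviations of their sums correlated at r = 0.31 to 0.82. The fit without a block treated these sums as independent. With the library as a block 1752, 323 and 1358 genes passed, 12.6%, 2.28% and 9.94%, and *Egfr* was among them in each split. *Egfr* was at 424, 374 and 356 CPM in cells with a *Lrig3* UMI and at 367, 314 and 320 CPM in cells without (log2 fold 0.17 ± 0.03, blocked adjusted p = 7.81e-06; 0.18 ± 0.11 and adjusted p = 1.00 without the block). For *Lrig1* the values were 416, 350 and 353 against 377, 333 and 324 CPM (0.11 ± 0.03, blocked adjusted p = 0.00491), and for *Lrig2* 421, 355 and 371 against 382, 335 and 325 CPM (0.13 ± 0.03, blocked adjusted p = 0.00535). *Egfr* was higher in the cells with the UMI in 3 of 3 libraries for each of the 3 *Lrig* genes.

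The other genes were described in the same splits. *Erbb4* was lower in cells with a *Lrig3* UMI at 27.3, 11.7 and 18.1 CPM against 35.7, 15.4 and 22.1 CPM (-0.35 ± 0.07, blocked adjusted p = 0.000685), while the makeup of both sums by kind of basal cell was not tested. *Lrig2* and *Lrig3* each passed in the split by the other under the block (0.16 ± 0.05 and 0.15 ± 0.04, adjusted p = 0.0465 and 0.0494). *Erbb2* did not pass in the *Lrig1* split, at 49.4, 44.3 and 49.4 CPM against 39.1, 38.1 and 46.5 CPM (0.15 ± 0.06, blocked adjusted p = 0.0659), and *Erbb3* had log2 folds from -0.07 to 0.05 with blocked adjusted p from 0.466 to 0.910. A cell without a UMI at this depth can still hold the mRNA, so these splits compare cells by detection and not by presence of the gene.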

How the data were processed

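Cells were profiled in 3 libraries, each a pool of 10 larynges, with the 10x Genomics GEM-X 3' kit. The authors aligned reads to GRCm39 with Cell Ranger 8.0.1 and deposited raw UMI counts per gene and barcode, and whether intronic reads were counted is not given in the sources used here. Quality limits were 500 to 8000 genes, 1000 to 40000 UMIs and a mitochondrial share of no more than 8% (the study's methods give the limits for genes and UMIs the other way round), and cells near simulated doublets were removed. Classes were set by marker UMIs in cells thinned to 5000 UMIs, and full counts were summed per class and library with at least 20 cells. No minimum was set for cycling basal cells, of which library 2 had 17. The sums were tested with edgeR 4.0.16 (TMM, filterByExpr, quasi-likelihood, two-sided, Benjamini-Hochberg adjustment over all genes tested, threshold 0.05), with library as replicate. The fit without a block was the main result, and for comparisons of classes it held the sums of all classes. Because each library pools the same mice for every class, the library was also used as a replicate block; deviations of paired sums correlated at 0.0351 to 0.816. On simulated data for airway against squamous basal cells (18364 genes) 80% of 2-fold and 20% of 1.5-fold changes were recovered. The simulation gave every gene the same spread, changed only well-counted genes and had no effect shared within a library. Recovery in the real data can therefore differ from these rates. Shares carry 95% Wilson intervals, and a count of 0 allows up to 3 counts, both for counting error only. Named genes were the 7 genes, for each the 3 genes most like it over classes, and from the pathway list up to 2 with the largest rise and 2 with the largest fall among those that passed, moved one way in 3 libraries and averaged at least 10 CPM. A pair of genes that this rule names is not reported here. The members, gene lists and tests were chosen with earlier results of these data known. Early secretory cells replaced club cells after the cells had been counted. DESeq2 1.42.0, RLE factors, no filter, no doublet removal, other gates, fewer classes and libraries left out were tried.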

Additional observations from a re-analysis of the deposited data

How the results depend on the processing

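The 60 tests of the 7 genes were repeated 635 times in all under the alternatives: 570 kept their direction and their side of the threshold, 17 lost the call, 23 gained it and 25 changed sign, 0 of these with a call in either fit. As log2 folds, with gates on counts as deposited *Lrig2* had 0.0088 in airway against squamous basal and -0.11 in suprabasal cells. With stricter gates *Egfr* had -0.11 and *Erbb3* -0.0038 in airway against squamous basal, *Lrig2* -0.093 in suprabasal cells and *Erbb4* -0.072 in the *Lrig2* split. *Lrig2* in suprabasal cells had -0.049 with DESeq2, -0.038 with RLE factors and -0.11 with no filter on low counts. With cells thinned to 2000 UMIs the *Lrig1* split gave -0.062 for *Lrig2*, -0.097 for *Erbb2* and -0.072 for *Erbb3*, and the *Lrig2* split -0.096 for *Lrig1*, 0.13 for *Erbb2* and -0.42 for *Erbb4*. The replicate block gave -0.016 for *Erbb3* in the *Lrig1* split, and no doublet removal 0.035 for *Erbb2* in the *Lrig2* split. With 1 library left out the range was -0.0077 to 0.084 for *Egfr* in airway against squamous basal, -0.065 to -0.0043 for *Lrig2* in suprabasal cells, -0.034 to 0.22 for *Lrig3* in cycling cells, -0.012 to 0.10 for *Erbb3* in the *Lrig1* split, and -0.046 to 0.042 for *Erbb2* and -0.069 to 0.18 for *Erbb3* in the *Lrig2* split. Counts of genes passing in each comparison moved more. For airway against squamous basal cells 1490 genes passed, 2733 with the compared classes alone, 2609 with the replicate block and 485 to 1105 with 1 library left out. For suprabasal against squamous basal cells 3073 passed, 1653 with gates on counts as deposited and 1410 to 1850 with 1 library left out. For early secretory against airway basal cells 742 passed, 1450 with the compared classes alone, 1293 with the block and 174 to 837 with 1 library left out. For cycling against other basal cells 4677 passed, 2970 with gates on counts as deposited and 2171 to 3244 with 1 library left out. In the splits by *Lrig1*, *Lrig2* and *Lrig3* no gene passed in edgeR, while the block gave 1752, 323 and 1358 and DESeq2 gave 4 for *Lrig1* and 2 for *Lrig3*. The cause of these shifts was not tested. The block changed no call of the 7 genes other than those given beside their results.

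Depth set the shares: an *Lrig1* UMI was found in 36.2% of squamous basal cells at 5000 UMIs, 17.5% at 2000 UMIs, 68.8% without thinning and 37.0% with gates on counts as deposited. The mean r of *Lrig3* with *Egfr* was 0.75 over 13 classes and 0.98 over the 9 epithelial classes. The comparison of club with airway basal cells could not be fitted, with under 20 club cells in each library. With 3 libraries of a single sorted condition, unsorted cells were not analysed here, and levels in endothelial cells and leukocytes rest on few cells outside library 1.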
